A study of Saccharomyces cerevisiae with 21 samples.

Results

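Yeast imports glucose through hexose transporters, and the 10 genes described here are 8 members of that family, HXT1 to HXT7 and HXT10, and the glucose sensors SNF3 and RGT2. They were picked by locus name from the 6600 features of the count tables, and all 10 had a row and passed the filter on low counts. The libraries came from Saccharomyces cerevisiae BY4742 (MATα his3Δ1 leu2Δ0 lys2Δ0 ura3Δ0), in which NAB2, whose product binds poly(A) RNA in the nucleus, carried a green fluorescent protein tag in every strain, wild type included. The IDR mutant lacks the QQQP and RGG regions of Nab2 (residues 104 to 263) and carries an SV40 nuclear localisation signal with yEGFP. The interface mutant has the single substitution F450A with GFP, and wild type is NAB2-yEGFP with a HISMX marker. Starved cells had been washed 3 times and kept for 24 h without glucose, and unstressed cells grew in 2% glucose. Poly(A) RNA was sequenced from nuclear extracts of starved cells (3 libraries for each of 3 strains) and from whole cells, starved or unstressed (2 libraries for each of 6 groups). Each value is thus relative to all poly(A) RNA counted in its library, and says nothing of how much RNA a cell holds in total.

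The hexose transporters are plasma membrane proteins that let glucose down its gradient, and they differ in affinity. Hxt1 and Hxt3 have low affinity and serve cells in plentiful glucose, Hxt2, Hxt4, Hxt6 and Hxt7 serve cells in scarce glucose, and Hxt5 is known from slow growth and stationary phase. Snf3 and Rgt2 resemble transporters but act as sensors: they lead to the breakdown of the corepressors Mth1 and Std1, which frees HXT promoters from the repressor Rgt1, while high glucose represses the high-affinity genes through Mig1.

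The deposited annotation and the R64 reference gave the same positions. HXT7 (YDR342C, chromosome IV, 1154216 to 1155928), HXT6 (YDR343C, 1159608 to 1161320) and HXT3 (YDR345C, 1162957 to 1164660) stand in a row on the minus strand, with 3679 bases between HXT7 and HXT6 and 1636 between HXT6 and HXT3. HXT4 (YHR092C, chromosome VIII, 287081 to 288811), HXT1 (YHR094C, 290913 to 292625) and HXT5 (YHR096C, 294669 to 296447) form another row on the minus strand of that chromosome. HXT2 (YMR011W, chromosome XIII, 288079 to 289704), HXT10 (YFL011W, chromosome VI, 112345 to 113985), SNF3 (YDL194W, chromosome IV, 111580 to 114234) and RGT2 (YDL138W, chromosome IV, 213351 to 215642) lie apart on the plus strand. Each span is 1 open reading frame from ATG to stop, so the counted features hold coding sequence and no UTR.

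HXT6 and HXT7 were nearly the same gene in the reference, and this limits every value given for either. Over 1713 aligned coding bases they differed at 3, which read T1632C, G1666A and T1677C (HXT6 base, position from 1 at the ATG, HXT7 base), an identity of 99.8%. The 84 bases before the ATG were identical too. Of all stretches of 50 coding bases, 95.1% of those in HXT6 also occurred in HXT7. The share found elsewhere in the genome was 14.9% for HXT3, 5.0% for HXT1, 4.0% for HXT5 and 2.5% for HXT4. It was 0.0% for HXT2, HXT10, SNF3 and RGT2. A read that covers none of these positions thus cannot tell HXT6 from HXT7, and how the authors' counting treated such reads is only partly given. The 60 bases that hold all 3 differences (coding bases 1618 to 1677, minus strand, R64, chrIV:1159644-1159703 for HXT6 and chrIV:1154252-1154311 for HXT7) are shown with the differing bases in capitals.
HXT6: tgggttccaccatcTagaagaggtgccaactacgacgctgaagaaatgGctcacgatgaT
HXT7: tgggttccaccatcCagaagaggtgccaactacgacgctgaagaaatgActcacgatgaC

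The stretches upstream of the genes were searched for the letters of known regulators. In the 1000 bases before each ATG, the search took both strands for CGGANNA (the core letters bound by Rgt1), for the letters of Mig1 sites (CCGGGG or CTGGGG, with GCGGGG or else GTGGGG) and for AGGGG (the stress response element, STRE, bound by Msn2 and Msn4). HXT3 held 9 matches for Rgt1 and HXT1 held 8, the most among the 10 genes, where 66.9% of 6546 such windows of the genome held at least 1 and 11.1% held 3 or more. HXT5 held 4, HXT2, HXT4 and HXT6 held 3 each, HXT7 held 2, and HXT10, SNF3 and RGT2 held 0. HXT2 and HXT4 held 4 matches for Mig1, HXT6 held 3, and HXT1, HXT3, HXT7 and SNF3 held 2 (42.1% of windows held at least 1, and 2.9% held 3 or more). HXT6 and HXT7 held 5 and 4 matches for STRE and HXT5 held 2, where 54.7% of windows held at least 1 and 6.8% held 3 or more. No matches of different motifs overlapped among the 69 found, and a match is a run of letters, not a measured binding site. The 300 bases with most Rgt1 matches are shown for HXT1, HXT3 and HXT2, since these genes took different courses after starvation, and for HXT5 the stretch with its STRE matches is shown. Capitals mark Rgt1 matches in the first 3 and STRE matches in HXT5 (R64, chrVIII:292810-293109, chrIV:1164899-1165198 and chrVIII:296620-296919 on the minus strand, chrXIII:287499-287798 on the plus strand).
HXT1: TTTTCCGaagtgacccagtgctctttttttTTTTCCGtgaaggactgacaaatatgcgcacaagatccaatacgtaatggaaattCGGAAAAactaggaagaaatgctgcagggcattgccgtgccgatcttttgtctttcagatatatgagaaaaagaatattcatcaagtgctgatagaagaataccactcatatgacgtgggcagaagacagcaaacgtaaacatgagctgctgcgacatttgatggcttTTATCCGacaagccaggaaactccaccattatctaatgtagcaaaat
HXT3: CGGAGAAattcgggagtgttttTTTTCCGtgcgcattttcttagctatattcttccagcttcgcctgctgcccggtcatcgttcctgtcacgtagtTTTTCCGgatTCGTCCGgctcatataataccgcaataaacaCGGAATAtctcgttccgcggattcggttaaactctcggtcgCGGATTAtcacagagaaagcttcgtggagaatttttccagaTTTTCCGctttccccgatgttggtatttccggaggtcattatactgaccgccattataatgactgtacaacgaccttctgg
HXT2: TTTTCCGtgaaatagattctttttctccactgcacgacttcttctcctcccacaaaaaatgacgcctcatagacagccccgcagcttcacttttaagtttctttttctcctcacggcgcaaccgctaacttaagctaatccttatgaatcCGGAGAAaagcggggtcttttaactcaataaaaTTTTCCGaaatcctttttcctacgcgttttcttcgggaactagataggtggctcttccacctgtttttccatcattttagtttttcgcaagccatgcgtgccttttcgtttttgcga
HXT5: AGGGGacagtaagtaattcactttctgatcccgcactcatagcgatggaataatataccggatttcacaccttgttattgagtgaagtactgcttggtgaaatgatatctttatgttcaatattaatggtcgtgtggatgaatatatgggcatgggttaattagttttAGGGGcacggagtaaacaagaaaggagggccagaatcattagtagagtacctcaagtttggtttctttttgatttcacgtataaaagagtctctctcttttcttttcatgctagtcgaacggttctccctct

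**Figure D1:**
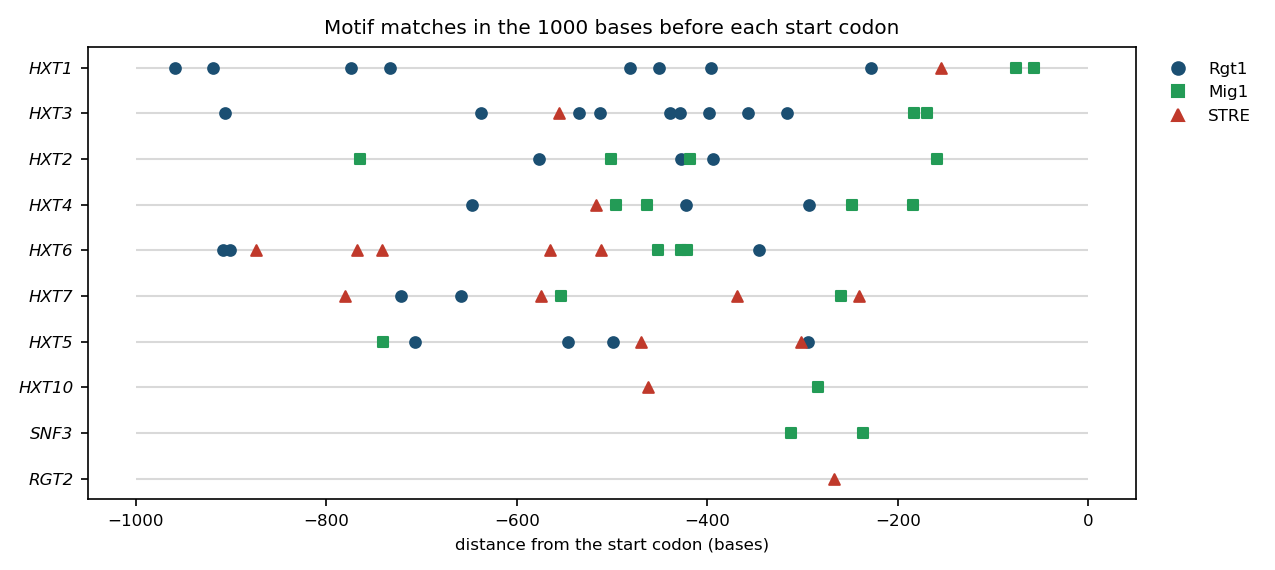
Matches of the Rgt1 (circle), Mig1 (square) and STRE (triangle) letters in the 1000 bases before the start codon of each gene, on either strand, by distance from the start codon in bases. Circles are most numerous for HXT3 (9) and HXT1 (8), triangles for HXT6 (5) and HXT7 (4).

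Whole cell libraries held 4815254 to 14069868 counts each, and 7 nuclear libraries held 6353585 to 23138938. Nothing in the labels says that replicates came from separate cultures, so p-values measure a spread that may be technical. All comparisons leave out interface mutant replicate 3 (3981 counts) and wild type replicate 3 (1079 counts) of the nuclear set, so nuclear n is 3 for the IDR mutant, 2 for the interface mutant and 2 for wild type. NAB2 stood at 123 to 133 CPM (counts scaled to a fixed library total) in the starved IDR mutant, 235 to 357 in the starved interface mutant and 370 to 380 in starved wild type, and its deletion lies inside the counted feature. In unstressed cells its level did not mark the deletion, with 205 and 226 CPM in the unstressed IDR mutant, 254 and 208 in the unstressed interface mutant and 49.8 and 201 in unstressed wild type. In nuclear extracts NAB2 stood at 277, 296.5 and 127 CPM in IDR mutant replicates 1, 2 and 3. It stood there at 119 and 331 CPM in interface mutant replicates 1 and 2, and at 414 and 431 in wild type. LEU2, LYS2 and URA3, deleted in the parent, had at most 5 counts in any library. Unstressed wild type replicate 1 stood apart from replicate 2 (Spearman 0.916 over genes, and lower CPM for 9 of the 10 genes described here). In the nuclear extracts, 1181 other genes that part the starved mutants in whole cells gave a mean signed log2 CPM of 0.37 and 0.43 in the whole cell IDR mutant and of -0.62 and -0.51 in the whole cell interface mutant. The same mean was -0.07, -0.15 and 0.51 in the nuclear libraries labelled IDR mutant, 0.46 and 0.11 in those labelled interface mutant, and -0.14 and 0.12 in nuclear wild type. Starved whole cell wild type gave -0.67 and -0.65, close to the interface mutant, so this mean cannot tell those 2 strains apart. Nuclear interface mutant replicate 1 lay with IDR mutant replicate 3. IDR mutant replicates 1 and 2 lay near nuclear wild type replicate 1, and interface mutant replicate 2 near nuclear wild type replicate 2. Whether any label is wrong was not tested. Results that rest on nuclear mutant libraries are given under their labels. Some are also given without 3 doubted libraries (IDR mutant replicates 1 and 2, interface mutant replicate 1). The mutants' differences between fractions for HXT3, HXT4, HXT5 and RGT2 are given under the labels alone.

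Starvation was compared with unstressed growth in whole cells of each strain, to ask how the mRNA of each transporter and sensor changes when glucose is gone (n = 2 in each of 6 groups). In every strain the transporters for scarce glucose (HXT2, HXT4, HXT6 and HXT7) and HXT5 rose, by 8.28-fold to 40.97-fold. HXT1 fell, SNF3 rose, and RGT2 did not pass the test. Of the 10 genes, 7 rose and 1 fell in the IDR mutant, where 33.0% of 5853 genes rose and 34.3% fell. In the interface mutant 8 rose and 1 fell, where 29.7% of all genes rose and 30.3% fell, and in wild type 7 rose and 1 fell, where 31.7% rose and 34.5% fell. The median log2 change of the 10 genes was 2.81 in the IDR mutant, 2.82 in the interface mutant and 2.73 in wild type, and -0.05 over all genes in each strain. The 25 calls rest on edgeR's quasi-likelihood test with Benjamini-Hochberg adjustment over all genes, and 22 of them held under every alternative run. In these bulk samples, fewer cells that hold an mRNA and less of it per cell cannot be told apart.

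HXT6 and HXT7, the near-identical high-affinity transporters, were the most abundant of the 8 transporters after starvation. HXT6 stood at 2382 and 2634 CPM in the starved IDR mutant, 1187 and 1232 in the starved interface mutant and 1366 and 1389 in starved wild type. Before starvation it stood at 124 and 117 CPM in the unstressed IDR mutant, 40.04 and 35.7 in the unstressed interface mutant and 30.5 and 39.9 in unstressed wild type. Starved and unstressed libraries were thus far apart in each strain, and the log2 change of HXT6 was 4.78 ± 0.15 (adjusted p = 4.58e-08) in the IDR mutant, 5.36 ± 0.16 (adjusted p = 4.06e-08) in the interface mutant and 5.27 ± 0.16 (adjusted p = 7.2e-08) in wild type. HXT7 stood at 2025 and 2212 CPM in the starved IDR mutant, 978 and 951 in the starved interface mutant and 1140.5 and 1121 in starved wild type. Before starvation it stood at 196 and 179 CPM in the unstressed IDR mutant, 55.6 and 49.8 in the unstressed interface mutant and 52.2 and 63.4 in unstressed wild type. Here too the IDR mutant was the highest strain in both conditions, and the log2 change was 3.89 ± 0.16 (adjusted p = 8.46e-08) in the IDR mutant, 4.55 ± 0.16 (adjusted p = 6.7e-08) in the interface mutant and 4.26 ± 0.16 (adjusted p = 1.26e-07) in wild type. Since reads may be shared between the pair, their sum was tested as a single gene: it rose 19.8-fold in the IDR mutant (4.31 ± 0.16), 30.8-fold in the interface mutant (4.94 ± 0.16) and 26.6-fold in wild type (4.73 ± 0.16).

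HXT2 and HXT4, which low glucose induces, rose in each strain as well. HXT2 stood at 1047 and 1049.5 CPM in the starved IDR mutant, 629 and 759 in the starved interface mutant and 1004 and 852 in starved wild type. Unstressed HXT2 was 85.4 and 79.1 CPM in the unstressed IDR mutant, 85.5 and 64.8 in the unstressed interface mutant and 30.1 and 65.6 in unstressed wild type. No starved library came near an unstressed one, and the log2 change was 4.07 ± 0.24 (adjusted p = 7.26e-07) in the IDR mutant, 3.57 ± 0.23 (adjusted p = 1.82e-06) in the interface mutant and 4.33 ± 0.24 (adjusted p = 7.91e-07) in wild type. HXT4 stood at 293 and 290 CPM in the starved IDR mutant, 170.2 and 229.7 in the starved interface mutant and 332 and 275 in starved wild type. Unstressed HXT4 was 45.3 and 47.5 CPM in the unstressed IDR mutant, 16.98 and 18.1 in the unstressed interface mutant and 8.32 and 18.9 in unstressed wild type. The unstressed IDR mutant lay above both other unstressed strains, while the starved IDR mutant and starved wild type overlapped. Its log2 change was 3.05 ± 0.24 (adjusted p = 3.76e-06) in the IDR mutant, 3.87 ± 0.25 (adjusted p = 1.56e-06) in the interface mutant and 4.53 ± 0.25 (adjusted p = 7.99e-07) in wild type.

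HXT5, a transporter of intermediate affinity, was scarce in unstressed cells and rose in each strain. It stood at 182 and 217 CPM in the starved IDR mutant, 110.1 and 185 in the starved interface mutant and 52.96 and 47.1 in starved wild type. Before starvation it stood at 10.9 and 12.1 CPM in the unstressed IDR mutant, 11.2 and 9.79 in the unstressed interface mutant and 3.13 and 6.66 in unstressed wild type. Starved wild type was the lowest of the starved strains, and its libraries did not overlap those of either mutant. The log2 change was 4.51 ± 0.29 (adjusted p = 1.29e-06) in the IDR mutant, 4.17 ± 0.29 (adjusted p = 2.75e-06) in the interface mutant and 3.40 ± 0.29 (adjusted p = 1.17e-05) in wild type.

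HXT1 and HXT3, the low-affinity transporters, took different courses. HXT1 stood at 39.4 and 35.3 CPM in the starved IDR mutant, 46.6 and 52.2 in the starved interface mutant and 58.95 and 55.7 in starved wild type. Before starvation it stood at 105 and 118 CPM in the unstressed IDR mutant, 189 and 185 in the unstressed interface mutant and 69.01 and 184 in unstressed wild type. All starved libraries lay below all unstressed ones, and HXT1 fell in each strain, by 1.18 on the log2 scale in the IDR mutant (SE 0.25, adjusted p = 0.00235), by 1.56 in the interface mutant (SE 0.25, adjusted p = 0.000521) and by 1.07 in wild type (SE 0.25, adjusted p = 0.004). In wild type the value was -0.57 without unstressed replicate 2, and the compared groups alone did not pass (adjusted p = 0.067). HXT3 stood at 414 and 443 CPM in the starved IDR mutant, 728 and 814 in the starved interface mutant and 841 and 752 in starved wild type. Unstressed HXT3 was 612 and 621 CPM in the unstressed IDR mutant, 709.5 and 718 in the unstressed interface mutant and 270.4 and 563 in unstressed wild type. In wild type HXT3 rose 1.97-fold (0.98 ± 0.18, adjusted p = 0.00102), in the interface mutant it rose 1.38-fold (0.47 ± 0.18, adjusted p = 0.0432), and in the IDR mutant it did not pass (-0.13 ± 0.18, adjusted p = 0.544). The interface mutant's call was lost when any 1 of its 4 libraries was left out (adjusted p 0.0665 to 0.189) and with no filter on low counts (adjusted p = 0.0584).

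The sensors differed from each other. SNF3, the sensor of low glucose, stood at 77.9 and 80.02 CPM in the starved IDR mutant, 55.4 and 79.6 in the starved interface mutant and 74.2 and 65.2 in starved wild type. Unstressed SNF3 was 23.4 and 23.1 CPM in the unstressed IDR mutant, 29.3 and 26.2 in the unstressed interface mutant and 10.1 and 24.8 in unstressed wild type. It rose in each strain without overlap, by 2.16 ± 0.26 (adjusted p = 5.98e-05) in the IDR mutant, 1.64 ± 0.25 (adjusted p = 0.000406) in the interface mutant and 2.06 ± 0.26 (adjusted p = 0.000107) in wild type. RGT2, the sensor of high glucose, stood at 39.4 and 36.8 CPM in the starved IDR mutant, 21.7 and 27.6 in the starved interface mutant and 25.6 and 21.8 in starved wild type. Unstressed RGT2 was 42.6 and 45.8 CPM in the unstressed IDR mutant, 51.3 and 49.4 in the unstressed interface mutant and 13.9 and 49.2 in unstressed wild type. The single low value of wild type replicate 1 sits below every starved library, and no strain passed: 0.18 ± 0.33 (adjusted p = 0.643) in the IDR mutant, -0.67 ± 0.33 (adjusted p = 0.11) in the interface mutant and -0.31 ± 0.34 (adjusted p = 0.445) in wild type. In the IDR mutant the CPM of RGT2 were lower after starvation while the log2 value, which uses the scaling factors, was above 0. Without unstressed wild type replicate 2 the wild type value was 0.47 (adjusted p = 0.032), the opposite sign.

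HXT10, a rarely expressed member of the family, had 7 to 33 counts per whole cell library. It stood at 6.29 and 3.38 CPM in the starved IDR mutant, 2.13 and 4.43 in the starved interface mutant and 1.81 and 1.45 in starved wild type. Unstressed HXT10 was 0.969 and 1.14 CPM in the unstressed IDR mutant, 1.39 and 0.634 in the unstressed interface mutant and 0.924 and 0.894 in unstressed wild type. It rose in both mutants, by 2.57 ± 0.50 (adjusted p = 0.00144) in the one with the IDR deletion and 2.07 ± 0.51 (adjusted p = 0.00636) in the one with the interface substitution, and it did not pass in wild type (0.79 ± 0.59, adjusted p = 0.256). The interface mutant's call was lost without its unstressed replicate 2 (adjusted p = 0.0562) or its starved replicate 2 (1.44, adjusted p = 0.0783). The difference of its response from wild type did not pass either, at 1.77 ± 0.78 (adjusted p = 0.157) for the IDR mutant and 1.28 ± 0.78 (adjusted p = 0.317) for the interface mutant.

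**Figure D2:**
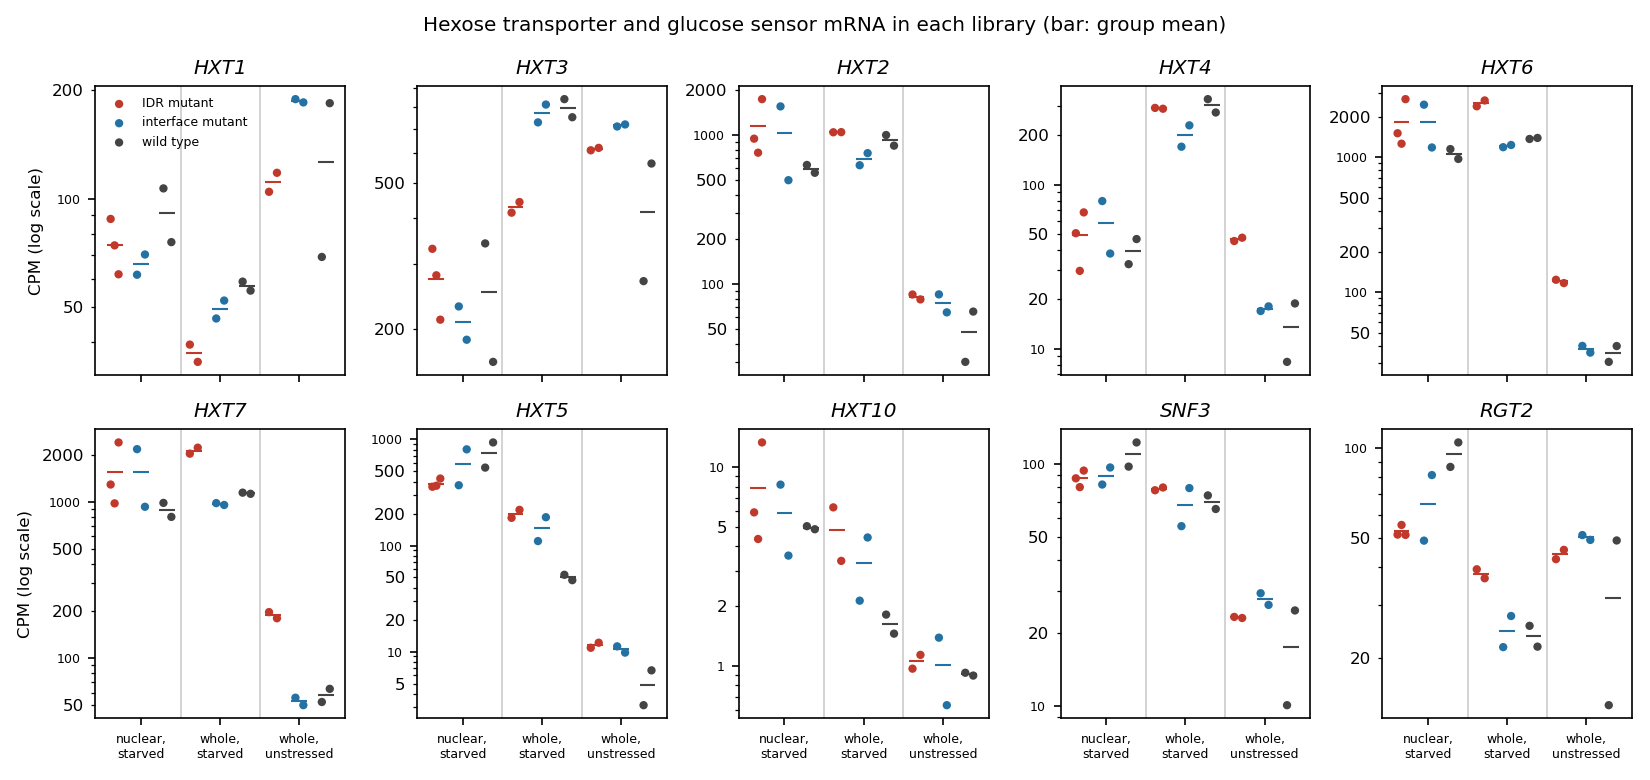
CPM (log scale) of each of the 10 genes in 19 libraries, by fraction and condition, with 1 point per library and a bar at the group mean, for the IDR mutant (red), interface mutant (blue) and wild type (grey). HXT6 and HXT7 of starved whole cells lie near or above 1000 CPM in each strain, and HXT1 is the gene whose starved whole cell libraries all lie below the unstressed ones.

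**Figure D3:**
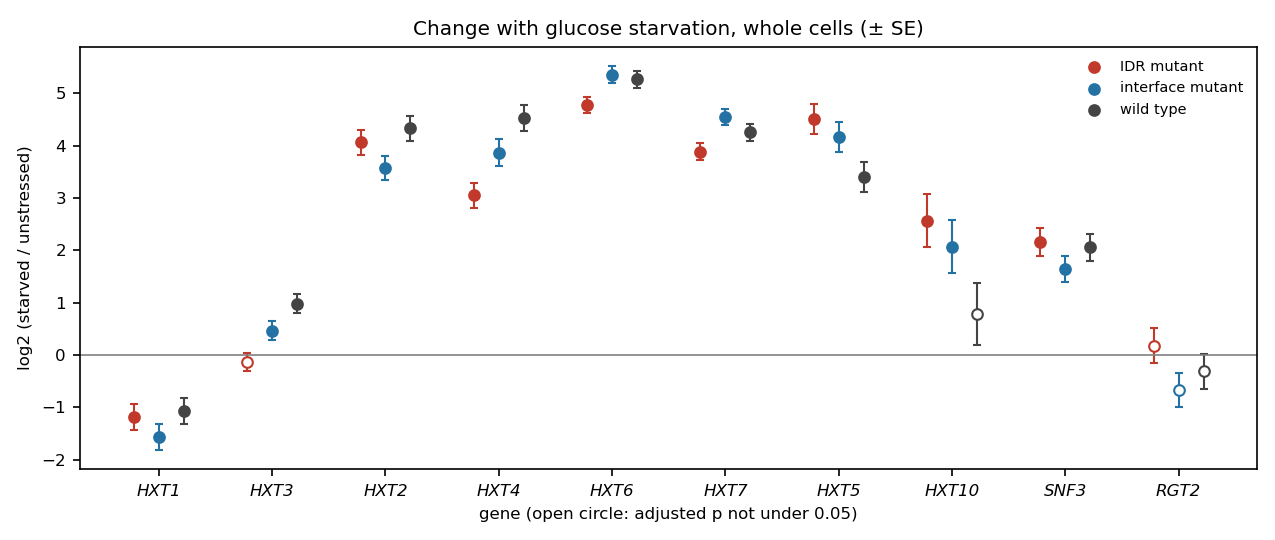
The log2 change (starved over unstressed, whole cells, ± SE from edgeR, n = 2 per group) of each gene in the IDR mutant, interface mutant and wild type, where open circles did not pass at an adjusted p of 0.05. HXT1 lies below 0 in each strain, RGT2 is open in each, and HXT6 reaches 5.36 in the interface mutant.

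Levels were then compared between genes as CPM per kilobase of coding sequence, the scale on which transporters of different length can be ranked. In starved wild type whole cells the order was HXT6 (804 CPM per kb), HXT7 (660), HXT2 (571), HXT3 (467), HXT4 (175), HXT1 (33.5), HXT5 (28.1), SNF3 (26.3), RGT2 (10.3) and HXT10 (0.996). Of these neighbours, HXT5 and SNF3 overlapped across libraries, though HXT5 was the higher within each library, and HXT6 and HXT7 cannot be ranked where reads are shared. In unstressed wild type the order was HXT3 (245), HXT1 (73.9), HXT7 (33.8), HXT2 (29.4), HXT6 (20.6), RGT2 (13.8), HXT4 (7.86), SNF3 (6.58), HXT5 (2.75) and HXT10 (0.554). There, each pair of neighbours from HXT7 down to SNF3 overlapped across libraries. Within each library HXT2, HXT6, RGT2, HXT4 and SNF3 kept this order. HXT7 and HXT2 swapped, with 30.5 against 18.5 CPM per kb in replicate 1 and 37.0 against 40.3 in replicate 2. The top of the order therefore differed between the conditions, with the pair HXT6 and HXT7 there after starvation and HXT3 before it. The low-affinity pair HXT1 and HXT3 made up 7.08% and 6.93% in the starved IDR mutant, 20.1% and 20.4% in the starved interface mutant and 18.7% and 17.9% in starved wild type of the summed CPM per kb of the 8 transporters. Before starvation the pair made up 60.7% and 62.8% in the unstressed IDR mutant, 80.8% and 83.3% in the unstressed interface mutant and 72.9% and 79.1% in unstressed wild type. HXT6 and HXT7 together took 68.5% and 69.9% in the starved IDR mutant, 55.8% and 51.2% in the starved interface mutant and 51.7% and 55.3% in starved wild type. Before starvation they took 26.99% and 25.1% in the unstressed IDR mutant, 8.56% and 7.85% in the unstressed interface mutant and 17.7% and 10.9% in unstressed wild type. In either condition the IDR mutant had the smallest share of low-affinity transporter mRNA and the largest of HXT6 and HXT7.

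**Figure D4:**
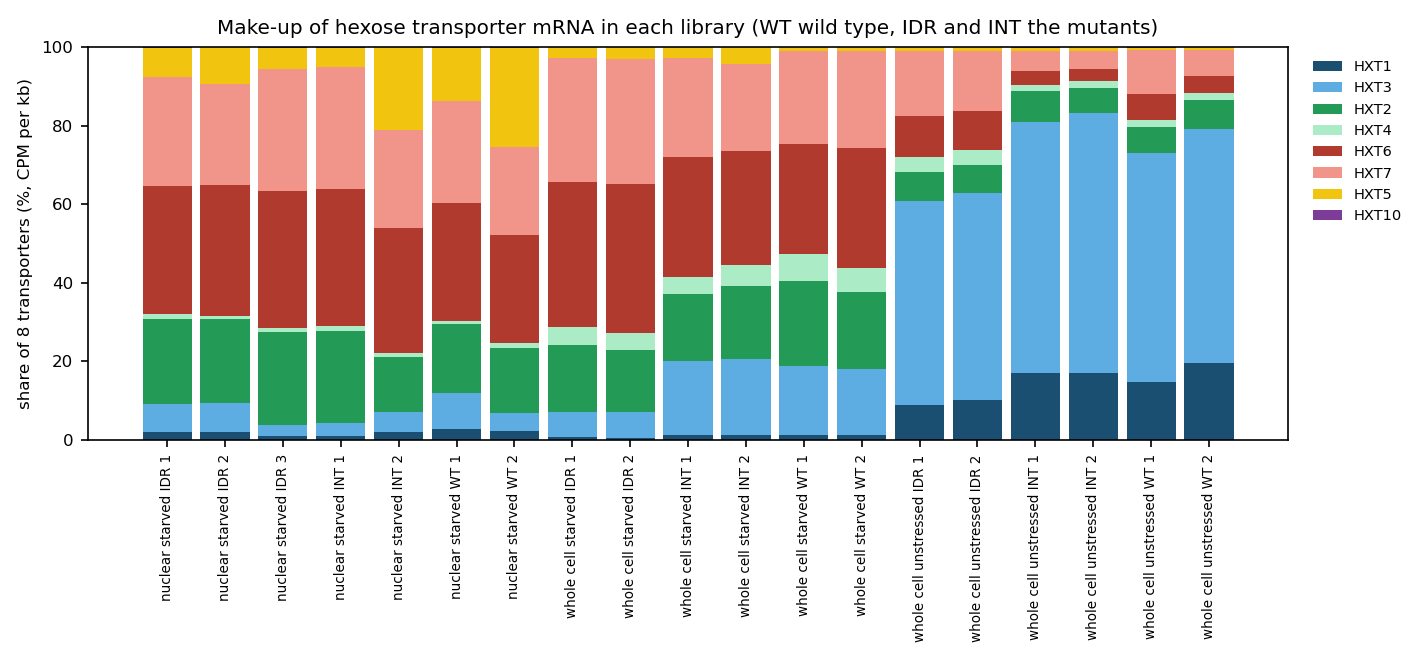
Share (%) of each of the 8 transporters in their summed CPM per kb, 1 bar per library, with IDR mutant, interface mutant (INT) and wild type (WT) libraries from left to right in each block. The blue segments (HXT1 and HXT3) fill 60.7% to 83.3% of the unstressed bars and 6.93% to 20.4% of the starved whole cell bars.

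As a share of all counts, the 8 transporters took 0.639% and 0.688% in the starved IDR mutant, 0.385% and 0.423% in the starved interface mutant and 0.480% and 0.449% in starved wild type. They took 0.118% and 0.117% in the unstressed IDR mutant, 0.111% and 0.108% in the unstressed interface mutant and 0.0465% and 0.0943% in unstressed wild type. Starved libraries thus gave several times the share of unstressed ones, and the starved IDR mutant gave the highest whole cell share. The exact (Clopper-Pearson, 95%) intervals of the shares are narrow, from 0.0453% to 0.0476% in unstressed wild type replicate 1 and from 0.681% to 0.695% in starved IDR mutant replicate 2. They cover the error of counting alone, as PCR copies are not separate molecules.

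The strains were compared before starvation to ask what the mutations change in growing cells. In the IDR mutant HXT4, HXT6 and HXT7 were higher than in wild type, which is 3 of the 10 genes against 1.67% of 5853 genes called in either direction and 1.13% called upward. The log2 difference of HXT6 was 1.54 ± 0.14 (adjusted p = 0.00311), that of HXT7 was 1.46 ± 0.14 (adjusted p = 0.00502) and that of HXT4 was 1.61 ± 0.23 (adjusted p = 0.0185), which are 2.91-fold, 2.74-fold and 3.05-fold. In no case did the IDR mutant libraries overlap wild type, even at the higher wild type replicate. HXT5 (1.06 ± 0.29, adjusted p = 0.0718) and HXT2 (0.61 ± 0.21, adjusted p = 0.0896) did not pass. All 3 calls were lost without IDR mutant replicate 1 and when only the compared groups were fitted (adjusted p = 0.441 for each), and those of HXT4 and HXT7 also without IDR mutant replicate 2 (adjusted p = 0.128 and 0.0572). They held with either wild type replicate left out. Against the interface mutant, HXT6 (1.70 ± 0.14, adjusted p = 0.00134) and HXT7 (1.87 ± 0.15, adjusted p = 0.00134) were again higher in the IDR mutant, 2 of 10 where 0.188% of all genes were called. Both calls were lost without interface mutant replicate 2 (adjusted p = 0.0748 for each), and HXT4 did not pass (1.44 ± 0.23, adjusted p = 0.0587). In the interface mutant against wild type edgeR called 0 of the 10, where 0% of all genes were called. HXT3, HXT5 and HXT7 reached an unadjusted p under 0.05 by edgeR. How many of all genes reached that cut was not counted, so it shows nothing particular to these genes. DESeq2 called 2 (HXT3 and HXT7), where it called 100 of all 5853 genes.

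After starvation the IDR mutant differed from wild type at 5 of the 10 genes, against 29.2% of all genes, with 4 higher (15.9% of all genes were higher) and 1 lower (13.3%). HXT5 was 4.52-fold higher (2.18 ± 0.26, adjusted p = 0.000651), HXT6 2.06-fold (1.05 ± 0.13, adjusted p = 0.000792) and HXT7 2.12-fold (1.09 ± 0.14, adjusted p = 0.000866), and these 3 calls held under every alternative run. HXT10 was higher as well (1.72 ± 0.52, adjusted p = 0.0342), at 18 to 33 counts per IDR mutant library. HXT3 was lower, at 414 and 443 CPM in the IDR mutant against 841 and 752 CPM in wild type (-0.71 ± 0.18, adjusted p = 0.0153). The HXT3 call was lost without any 1 of the 4 libraries (adjusted p 0.0512 to 0.105), and the HXT10 call without 3 of them. RGT2 (0.86 ± 0.35, adjusted p = 0.0922), HXT2 (0.36 ± 0.21, adjusted p = 0.24) and HXT4 (0.12 ± 0.22, adjusted p = 0.709) did not pass. Against the starved interface mutant the IDR mutant was higher at HXT6 (1.13 ± 0.13, adjusted p = 0.00144) and HXT7 (1.21 ± 0.14, adjusted p = 0.00143) and lower at HXT3 (-0.77 ± 0.18, adjusted p = 0.0171), 3 of 10 against 20.2% of all genes (10.4% called higher and 9.86% lower). The HXT3 call was lost without either IDR mutant replicate or interface mutant replicate 2 (adjusted p 0.0687 to 0.112). The interface mutant was higher than wild type at HXT5, with 110 and 185 CPM against 53.0 and 47.1 CPM in wild type (1.66 ± 0.26, adjusted p = 0.0336), 1 of 10 against 0.478% of all genes and 0.410% called higher. That call was lost without either wild type replicate, without interface mutant replicate 2 (1.24, adjusted p = 0.176) and when the compared groups were fitted alone (adjusted p = 0.0781). These comparisons share the wild type or IDR mutant libraries, so their values stand side by side and are not independent.

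Whether the response itself differed between strains was tested as an interaction. HXT3 and HXT4 responded less in the IDR mutant than wild type did: the difference of the log2 changes was -1.11 ± 0.25 (adjusted p = 0.024) for HXT3 and -1.49 ± 0.32 (adjusted p = 0.0192) for HXT4. This is 2 of 10 genes against 11.7% of all genes, with 5.50% called downward. For HXT4 the unstressed level was 45.3 and 47.5 CPM in the IDR mutant against 8.32 and 18.9 CPM in wild type, and the starved levels overlapped. For HXT3 the unstressed libraries stood at 612 and 621 CPM in the IDR mutant against 270 and 563 CPM in wild type, which did not pass (0.39 ± 0.18, adjusted p = 0.141). The starved ones stood at 414 and 443 CPM against 841 and 752 CPM, where the IDR mutant was called lower (-0.71 ± 0.18, adjusted p = 0.0153). Both calls held without either unstressed wild type replicate and were lost without any 1 of the other 6 libraries or when the 4 compared groups were fitted alone (adjusted p = 0.0746 for HXT3 and 0.0512 for HXT4). HXT5 (1.12 ± 0.39, adjusted p = 0.09), HXT6 (-0.49 ± 0.19, adjusted p = 0.114) and HXT7 (-0.37 ± 0.20, adjusted p = 0.241) did not pass. For the interface mutant edgeR called 0 of the 10, where 0.0171% of all genes were called, and DESeq2 called 0 of the 10. HXT2 (-0.76 ± 0.30, adjusted p = 0.254) reached an unadjusted p under 0.05 by edgeR, a cut not counted over all genes.

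Nuclear extracts were compared with whole cells of the same starved strain to ask where the mRNA is found. The fractions were also made and counted as separate library sets, the nuclear one with spike-in features, so fraction and library set cannot be told apart. HXT5 and RGT2 were higher, and HXT3 and HXT4 lower, in nuclear extracts than in whole cells of the interface mutant and of wild type. These are 4 of 10 genes in each, against 34.3% of 5944 genes called in the interface mutant and 31.0% in wild type. In the IDR mutant 2 of 10 passed (HXT1 upward and HXT4 downward), against 9.61% of all genes.

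In wild type, HXT5 showed the largest difference between fractions of the 10 genes. It stood at 358, 366 and 428 CPM in nuclear libraries labelled IDR mutant, 369.9 and 806 in those labelled interface mutant and 542 and 936 in nuclear wild type. Its whole cell levels in the same strains, given above with starvation, were 47.1 to 217 CPM. The nuclear libraries of wild type were thus among the highest and its whole cell libraries the lowest. The log2 difference was 0.75 ± 0.35 (adjusted p = 0.18) in the IDR mutant, which did not pass, 1.91 ± 0.39 (adjusted p = 0.00513) in the interface mutant and 3.68 ± 0.42 (adjusted p = 0.000985) in wild type, a fold of 12.8. RGT2 stood at 51.5, 55.4 and 51.3 CPM in nuclear libraries labelled IDR mutant, 49.1 and 81.2 in those labelled interface mutant and 86.4 and 104 in nuclear wild type, and its log2 difference was 0.26 ± 0.20 (adjusted p = 0.407) in the IDR mutant, 1.33 ± 0.22 (adjusted p = 0.00243) in the interface mutant and 1.79 ± 0.22 (adjusted p = 0.00104) in wild type. As a share of the 8 transporters per kb, HXT5 took 5.35% to 9.32% in nuclear libraries labelled IDR mutant, 5.09% and 20.9% in those labelled interface mutant, and 13.7% and 25.4% in nuclear wild type.

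HXT4 and HXT3 went the other way. HXT4 stood at 50.6, 29.8 and 67.7 CPM in nuclear libraries labelled IDR mutant, 79.4 and 38.02 in those labelled interface mutant and 32.8 and 46.6 in nuclear wild type, each below every starved whole cell library. Its log2 difference was -2.74 ± 0.41 (adjusted p = 0.00923) in the IDR mutant, -1.77 ± 0.46 (adjusted p = 0.014) in the interface mutant and -3.15 ± 0.49 (adjusted p = 0.00194) in wild type. The IDR mutant's call was lost without either of its whole cell replicates (adjusted p = 0.0853 and 0.134), and the interface mutant's without its whole cell or its nuclear replicate 2 (adjusted p = 0.0636 and 0.0802). HXT3 stood at 331, 280.4 and 213 CPM in nuclear libraries labelled IDR mutant, 231 and 188 in those labelled interface mutant and 342 and 163 in nuclear wild type. It too was below every starved whole cell library, with a log2 difference of -1.91 ± 0.31 (adjusted p = 0.0023) in the interface mutant and -1.89 ± 0.31 (adjusted p = 0.00249) in wild type, and of -0.87 ± 0.27 (adjusted p = 0.0612) in the IDR mutant, which did not pass. HXT1 passed in the IDR mutant alone of the strains (0.78 ± 0.16, adjusted p = 0.0191), was not shown to differ there from wild type (0.33 ± 0.23, adjusted p = 0.397), and lost its call without the 3 doubted libraries (0.69, adjusted p = 0.0578), without nuclear IDR mutant replicate 1 or without either whole cell IDR mutant replicate (adjusted p 0.0641 to 0.216).

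HXT2, HXT6 and HXT7 varied widely among nuclear libraries that share a label. HXT6 stood at 1506, 1259.6 and 2693 CPM in nuclear libraries labelled IDR mutant, 2451 and 1181 in those labelled interface mutant and 1149 and 972 in nuclear wild type. HXT2 stood at 949, 764 and 1748 CPM in nuclear libraries labelled IDR mutant, 1562 and 499 in those labelled interface mutant and 632 and 560 in nuclear wild type, and HXT7 at 1286, 974 and 2389 CPM in nuclear libraries labelled IDR mutant, 2165 and 926 in those labelled interface mutant and 981 and 798 in nuclear wild type. For all 3 genes the highest values came from replicate 3 of the IDR mutant and replicate 1 of the interface mutant. SNF3 stood at 87.3, 80.3 and 93.97 CPM in nuclear libraries labelled IDR mutant, 82.3 and 96.8 in those labelled interface mutant and 97.6 and 123 in nuclear wild type and HXT1 at 87.97, 74.3 and 61.8 CPM in nuclear libraries labelled IDR mutant, 61.6 and 70.1 in those labelled interface mutant and 107 and 75.9 in nuclear wild type. HXT10 stood at 5.93, 4.36 and 13.3 CPM in nuclear libraries labelled IDR mutant, 8.19 and 3.595 in those labelled interface mutant and 5.06 and 4.88 in nuclear wild type. SNF3, HXT2, HXT6, HXT7 and HXT10 did not pass between fractions in any strain. Without the 3 doubted libraries, wild type itself gave 8 of 10 calls (3 higher and 5 lower in nuclear extracts) where 2557 of 6000 genes were called, with the same wild type libraries and a spread estimated from the 4 nuclear libraries that remain.

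**Figure D5:**
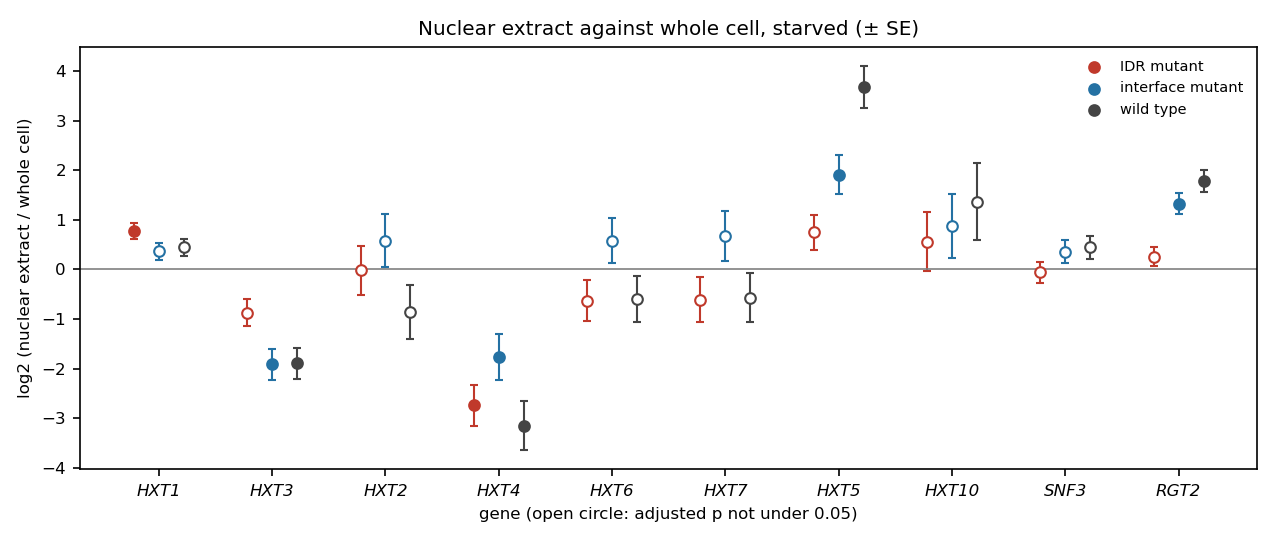
The log2 difference (nuclear extract over whole cell, starved cells, ± SE from edgeR) of each gene in the IDR mutant, interface mutant and wild type, under the library labels, where open circles did not pass at an adjusted p of 0.05. HXT5 and RGT2 are filled and above 0 in the interface mutant and wild type, and HXT4 lies below 0 in each strain.

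The difference between fractions was itself smaller in the IDR mutant than that of wild type for HXT5 (-2.94 ± 0.52, adjusted p = 0.0387) and RGT2 (-1.53 ± 0.29, adjusted p = 0.0397), 2 of 10 against 1.40% of all genes and 1.09% called downward. Both calls were lost without any 1 of the 4 whole cell libraries of these strains, nuclear IDR mutant replicate 1 or 2, or nuclear wild type replicate 2 (adjusted p 0.0862 to 0.218). Without the 3 doubted libraries the values were -2.62 (adjusted p = 0.0603) and -1.39 (adjusted p = 0.0638), with a single library left in the nuclear IDR mutant and in the nuclear interface mutant. For the interface mutant edgeR called 0 of 10 and 0% of all genes, and DESeq2 called 0 of 10. HXT5 (-1.77 ± 0.54) reached an unadjusted p under 0.05 by edgeR but did not pass after adjustment, and that cut was not counted over all genes. Within the nuclear extracts, neither mutant differed from wild type at any of the 10 genes by edgeR or DESeq2, and edgeR called 0% of 6086 genes in either comparison. An unadjusted p under 0.05 was reached by 1 gene in the IDR mutant (RGT2, -0.62 ± 0.21, adjusted p = 0.848) and by 0 in the interface mutant. How many of all genes reached that cut was not counted. Without the 3 doubted libraries HXT2, HXT4, HXT6, HXT7 and HXT10 were called higher in the lone remaining IDR mutant library, replicate 3, than in wild type, so the nuclear strain comparison rests on which libraries are kept.

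The balance between HXT6 and HXT7 moved with the condition, a pattern seen after the values were known and given with no test. HXT6 took 54.0% to 56.4% of the counts of the pair in the 6 starved whole cell libraries and 53.0% to 56.4% in the 7 nuclear ones, against 36.9% to 41.9% in the 6 unstressed libraries. The exact 95% intervals of the extreme libraries were 53.4% to 54.7% for the lowest starved whole cell share and 38.6% to 45.2% for the highest unstressed one. The order held in each of the 3 strains. With 99.8% identity, this share depends on how shared reads were given to the pair, whose part in it was not tested.

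Genes that act with the transporters were counted from lists chosen for their role. Of the 9 other family genes, 6 passed the filter in whole cells, and 5 rose in the IDR mutant, 4 in the interface mutant and 3 in wild type with starvation, with 0, 0 and 1 lower. These counts and those of the next 2 lists stand against 33.0% of all genes higher and 34.3% lower for the IDR mutant, 29.7% and 30.3% for the interface mutant, 31.7% and 34.5% for wild type. HXT13 had 60 and 84 counts in the starved IDR mutant, 58 and 56 in the starved interface mutant and 27 and 30 in starved wild type, and 0 to 4 counts in each unstressed library, too few for a fold. GAL2, the galactose permease, rose by 3.32 ± 0.37 (adjusted p = 3.92e-05) in the IDR mutant, 3.25 ± 0.42 (adjusted p = 0.000134) in the interface mutant and 2.23 ± 0.42 (adjusted p = 0.00128) in wild type. Its values also rest on few reads, with 4 to 11 counts in each unstressed library and 12 to 44 in each starved whole cell library. Of 14 genes of the glucose signal pathway, the IDR mutant had 6 higher and 2 lower, the interface mutant 7 higher and 2 lower and wild type 10 higher and 1 lower, with medians of 0.46, 0.47 and 1.11 in that order against -0.05 over all genes. The paralogous corepressors took opposite courses. MTH1 rose by 3.96 ± 0.23 (adjusted p = 6.94e-07) in the IDR mutant, 4.15 ± 0.23 (adjusted p = 7.24e-07) in the interface mutant and 4.96 ± 0.24 (adjusted p = 4.72e-07) in wild type. STD1 fell, with -1.79 ± 0.23 (adjusted p = 9.77e-05) in the IDR mutant, -1.34 ± 0.22 (adjusted p = 0.000662) in the interface mutant and -0.97 ± 0.22 (adjusted p = 0.00371) in wild type. The repressor genes RGT1 and MIG1 rose in each strain, in wild type by 2.28 ± 0.32 (adjusted p = 0.000223) and 2.21 ± 0.27 (adjusted p = 9.8e-05). Of 4 genes for transporter turnover, 3 rose in the IDR mutant, 3 in the interface mutant and 4 in wild type. CSR2, which encodes an arrestin-like adaptor of the ubiquitin ligase Rsp5, rose by 6.63 ± 0.32 (adjusted p = 2.36e-07) in the IDR mutant, 5.36 ± 0.30 (adjusted p = 7.35e-07) in the interface mutant and 5.53 ± 0.31 (adjusted p = 7.64e-07) in wild type.

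The genes most like each member were taken as those with the highest Pearson r of log2(CPM + 1) over 19 libraries, among 5302 genes with a mean of at least 10 CPM. The libraries fall into starved and unstressed ones and share depth and normalisation, so r is a description. For HXT6 and for HXT7 the closest gene outside the 10 was HXK1, a hexokinase gene (0.995 and 0.986), and HXT6 had 518 genes above 0.9. HXT5 was closest to PHM7 (0.994), HXT2 to RTS3 (0.987) and SNF3 to IXR1 (0.990). HXT4 and HXT3 had few close genes, 5 and 14 above 0.9, led by SOL4 (0.964) for HXT4 and by UMP1 (0.962) and ADH1, the main alcohol dehydrogenase gene of fermentation (0.961), for HXT3. HXT1 was closest to CIR2 (0.964), RGT2 to FRK1 (0.969) and HXT10 to YIL059C (0.933).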

How the data were processed

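The deposited values are unnormalised counts of reads per gene. Per the file headers the authors counted gene features with featureCounts 2.0.1, in reverse-stranded mode, fractional counting of multi-mapping reads switched on, against annotation R64-2-1. The counts were nevertheless whole (0 values were not). Trimming with cutadapt and alignment with TopHat2 are named in the submitters' processing notes, with versions not given in the sources used here. Nuclear libraries under 0.2 of the nuclear median (8719732 counts) were left out.

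All genes were fitted with edgeR 4.0.16 (R 4.3.3): TMM factors, filterByExpr (minimum count 10), quasi-likelihood F test, Benjamini-Hochberg adjustment and a threshold of 0.05. The 3 fits used whole cell libraries, nuclear libraries, and starved libraries of both fractions, and gave 18 comparisons. Differences are log2 ± SE. CPM are counts over the library total, without TMM. The test was also run on simulated counts drawn at the fit's own spread. These held no library that stands apart and no doubted label, so that run does not bear on either. DESeq2 1.42.0 and other settings were alternatives. Members, lists and the rule for named genes (all members, the lists' genes, and the genes most like each member) were chosen with earlier results of these data known. Sequences come from RefSeq R64. Same-numbered replicates did not deviate together in every pair, so numbers were not taken to pair samples.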

Additional observations from a re-analysis of the deposited data

Results flagged for a closer look

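The starvation response of 2 genes differed between the IDR mutant and wild type by a test of the difference itself: HXT3 (-1.11 on the log2 scale, IDR mutant minus wild type) and HXT4 (-1.49). The difference between nuclear extract and whole cell differed between the same strains for HXT5 (-2.94) and RGT2 (-1.53). None of these calls held under every alternative run, and each was lost when certain single libraries were left out. Nuclear interface mutant replicate 3, which entered no comparison, held 12 counts over the 10 genes, above the limit of 3 counts.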

How the results depend on the processing

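Of 53 called results of single genes, 34 kept their call under every alternative run: 22 of 25 for starvation, 0 of 5 between unstressed strains, 5 of 9 between starved strains, 0 of 2 for the difference of the response and 7 of 12 for the fractions. Counts of the 10 genes called are given next. DESeq2 called 5 in the unstressed IDR mutant against wild type (3 by edgeR), 2 in the unstressed interface mutant against wild type (0 by edgeR, all genes 100 against 0) and 5 in the starved IDR mutant against the interface mutant (3 by edgeR, all genes 1485 against 1184). Over all genes, the unstressed IDR mutant against wild type gave 98 calls by edgeR, 1352 by DESeq2 and 0 with the compared groups alone. With the compared groups alone the counts of the 10 were 0 in the unstressed IDR mutant against wild type, 4 in the unstressed IDR mutant against the interface mutant (from 2, all genes 641 from 11), 9 in the starved IDR mutant against wild type (from 5, where all genes called went to 3575 of 5692 from 1710 of 5853), 0 in the starved interface mutant against wild type (from 1, all genes 46 from 28), 6 in the starved IDR mutant against the interface mutant (from 3, all genes 1605 from 1184), 0 for the response of the IDR mutant against wild type (from 2, all genes 248 from 687) and 7 for the fractions of wild type (from 4, all genes 2347 from 1842).

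With a library left out, the count ran over 0 to 8 in the unstressed IDR mutant against wild type, 0 to 7 in the unstressed interface mutant against wild type, 0 to 2 in the unstressed IDR mutant against the interface mutant, 3 to 4 in the starved IDR mutant against wild type, 0 to 1 in the starved interface mutant against wild type, 0 to 6 for the response of the IDR mutant and 0 to 7 for that of the interface mutant. It ran over 0 to 4 for the fractions of the IDR mutant and 0 to 3 for their difference from wild type. The counts of 8, 7 and 7 came without unstressed wild type replicate 2, which leaves replicate 1 alone. RGT2 reversed there, to 0.47 from -0.31 in wild type, and was -0.81 without replicate 1. Where 1 library was left in a group it was assumed to vary like the others.

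Without the 3 doubted nuclear libraries, an alternative chosen after seeing the data, each nuclear mutant kept 1 library. Counts of calls are therefore not given here. The nuclear IDR mutant against wild type then gave 1.99 for HXT2 (from 1.25), 1.78 for HXT6 (from 1.07) and 1.87 for HXT7 (from 1.10). For the fractions of wild type, HXT2, HXT6, HXT7 and HXT10 kept nearly the same values (HXT2 -0.86 in both). The difference of the IDR mutant's fractions from wild type was 1.56 for HXT2 (from 0.83). HXT2 reversed to -0.63 from 0.58 in the fractions of the interface mutant. With the replicate block the count was 4 for the fractions of the IDR mutant (from 2), and in no other comparison did it move by over 1.5 times. Replicate numbers correlated at -0.53 to 0.33 in their deviations in whole cells. RLE factors, no filter on low counts and all 9 nuclear libraries kept moved no count by over 1.5 times. The cause was not tested in any of these cases. Depth limits HXT10 (7 to 33 counts in whole cells), and 2 libraries a group limit every comparison.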
